A study of Rattus norvegicus with 10 samples.

Results

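The genes described here are 36 genes of the hypoxia response and of glycolysis, taken by symbol from a rat mammary tumour array series; genes for VEGF ligands and receptors are not among them. Of the 36, 35 had at least 1 probe set that the platform annotation pairs with a single gene symbol, 58 probe sets in all, out of 31099 probe sets in the table. Pkm, the pyruvate kinase gene, shared its probe set with a pseudogene and is not described further, and Gapdh was read by control probe sets only. The other 34 all passed the filter on dim signal and were tested among 10839 genes.

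The tumours were induced in female Sprague-Dawley rats with the carcinogen 7,12-dimethylbenz(a)anthracene (DMBA), given once by mouth at 100 mg/kg, which every sample shares. The 5 final samples are tumour tissue taken at sacrifice, at 19 weeks of age in the 7th week after the biopsy, following hydroxytyrosol (a phenol of olive oil) by gavage at 0.5 mg/kg per day, 5 days a week for 6 weeks. The 5 basal samples are biopsies of the same 5 tumours (66D2, 67D3, 45D3, 49I1 and 51I1) at 12 weeks of age, before any treatment, at a tumour volume of 2 cm3. The tumours had been selected as Bloom-Richardson grade II. Age, tumour growth, hydroxytyrosol and any difference in how the tissue was taken separate the final from the basal samples and cannot be told apart; final tumours without hydroxytyrosol were not analysed here. The sample labels describe the final tissue as total tumour, whereas the series' design text has core needle biopsies at both times, and nothing used here settles which holds. Nothing in the labels says that the 5 tumours grew in 5 rats, so the p-values measure the spread between these tumours. Values below are log2 signals after Robust Multichip Average (RMA) normalization, given by tumour in the order 66D2, 67D3, 45D3, 49I1 and 51I1, and a difference is final minus basal, so that 1 unit is a doubling. A probe set's signal depends on its probes, so levels of different genes are not compared.

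Cells sense oxygen through the EGLN prolyl hydroxylases, which mark the HIF alpha subunits for destruction while oxygen is present. When oxygen falls, the alpha subunits persist, pair with ARNT and bind short DNA elements with the core ACGTG or GCGTG near their target genes. Those targets include the glucose transporter GLUT1 and nearly every enzyme of glycolysis, together with genes for acid handling, mitophagy and redox folding in the endoplasmic reticulum. In solid tumours, mammary ones included, the same genes mark poorly perfused regions, and many are also driven by MYC and by growth factor signalling.

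The promoters of several of these genes carry the ACGTG core, and 5 of them are shown because their genes represent pH control, glucose uptake, lactate production, mitophagy and a small inducible target of the pathway. RefSeq promoter windows (build GRCr8, 250 bases before to 50 after a transcription start) matched 32 of the 36 genes by symbol. In 21 of the 32 genes a window held ACGTG on either strand, which was 21 of 36 windows (58.3%), against 19.3% of all 33469 windows of that length. The core GCGTG was in 18 of 36 windows (50%), against 29.7% of all. CACGTG, which contains ACGTG on both strands, was in 6 of 36 windows (16.7%), against 6.42% of all. A match describes these letters and is not a binding site. Many of these genes are known HIF targets, so a larger share was to be foreseen. The windows were not matched for base composition, and the shares are descriptive only. The stretches run from 150 bases before to 30 bases after the start site, 5′ to 3′, with every ACGTG or its reverse complement in capitals.
Car9, chr5:62558874-62559053, plus strand: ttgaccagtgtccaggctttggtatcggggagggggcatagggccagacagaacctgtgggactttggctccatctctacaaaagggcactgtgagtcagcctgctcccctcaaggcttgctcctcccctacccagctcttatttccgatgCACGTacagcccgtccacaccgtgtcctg
Slc2a1, chr5:138002372-138002551, plus strand: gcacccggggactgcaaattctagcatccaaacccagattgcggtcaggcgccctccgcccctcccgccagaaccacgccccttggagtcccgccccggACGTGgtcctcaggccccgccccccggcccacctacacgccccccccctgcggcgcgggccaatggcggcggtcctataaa
Ldha, chr1:106507942-106508121, plus strand: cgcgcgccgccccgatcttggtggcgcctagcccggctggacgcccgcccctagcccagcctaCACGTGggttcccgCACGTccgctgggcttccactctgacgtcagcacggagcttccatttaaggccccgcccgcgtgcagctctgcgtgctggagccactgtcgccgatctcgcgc
Bnip3, chr1:203154933-203155112, minus strand: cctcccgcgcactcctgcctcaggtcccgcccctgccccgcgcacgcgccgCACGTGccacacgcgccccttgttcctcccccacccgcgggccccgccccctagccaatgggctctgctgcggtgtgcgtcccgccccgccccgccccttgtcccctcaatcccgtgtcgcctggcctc
Ankrd37, chr16:53001357-53001536, plus strand: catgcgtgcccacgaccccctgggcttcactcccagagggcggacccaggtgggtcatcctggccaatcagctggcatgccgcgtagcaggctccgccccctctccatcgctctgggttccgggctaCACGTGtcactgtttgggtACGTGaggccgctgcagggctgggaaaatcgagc
The Ldha and Bnip3 stretches each hold a CACGTG, the Ankrd37 stretch holds a CACGTG and a separate ACGTG, and Car9 has its single core just downstream of the start site.

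Over the 34 genes, mean signal was lower in final than in basal samples for 30 and higher for 4, against 52.1% of all 10839 genes lower. None of these differences passed the test. With limma and the tumour as a block, 0 of 34 genes had a Benjamini-Hochberg adjusted p under 0.05 (background 0% of probe sets, with 8.02% at an unadjusted p under 0.05), and the adjusted p ran from 0.647 to 0.995. At an unadjusted p under 0.05 there were also 0 of 34, against 4.36% of all genes on the lower side and 2.78% on the higher side. The median difference over the 34 genes was -0.16, against -0.01 over all genes tested. No gene of the 34 moved one way in all 5 tumours (5.27% of all genes were lower in all 5 and 3.52% higher in all 5), and in none did the final and basal values separate without overlap (1.09% of all genes had all final values lower and 0.111% all higher). In bulk tissue, fewer cells of a type and less RNA per cell cannot be told apart.

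The tumours did not move together. In 66D2 28 of the 34 genes were lower in the final sample (background 46.2%), and 27 were lower in 67D3 (52.8%). The final samples of 49I1 and 51I1 each had 31 of 34 lower (57.3% and 59.2%). In 45D3 only 6 were lower (45.8%). By tumour the median difference over the 34 genes was -0.16, -0.25, 0.58, -0.44 and -0.50, while over all genes the same medians lay between -0.08 and 0.04. For 21 of the 34 genes 45D3 alone had the higher final value, a pattern that 13.2% of all genes showed.

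**Figure D1:**
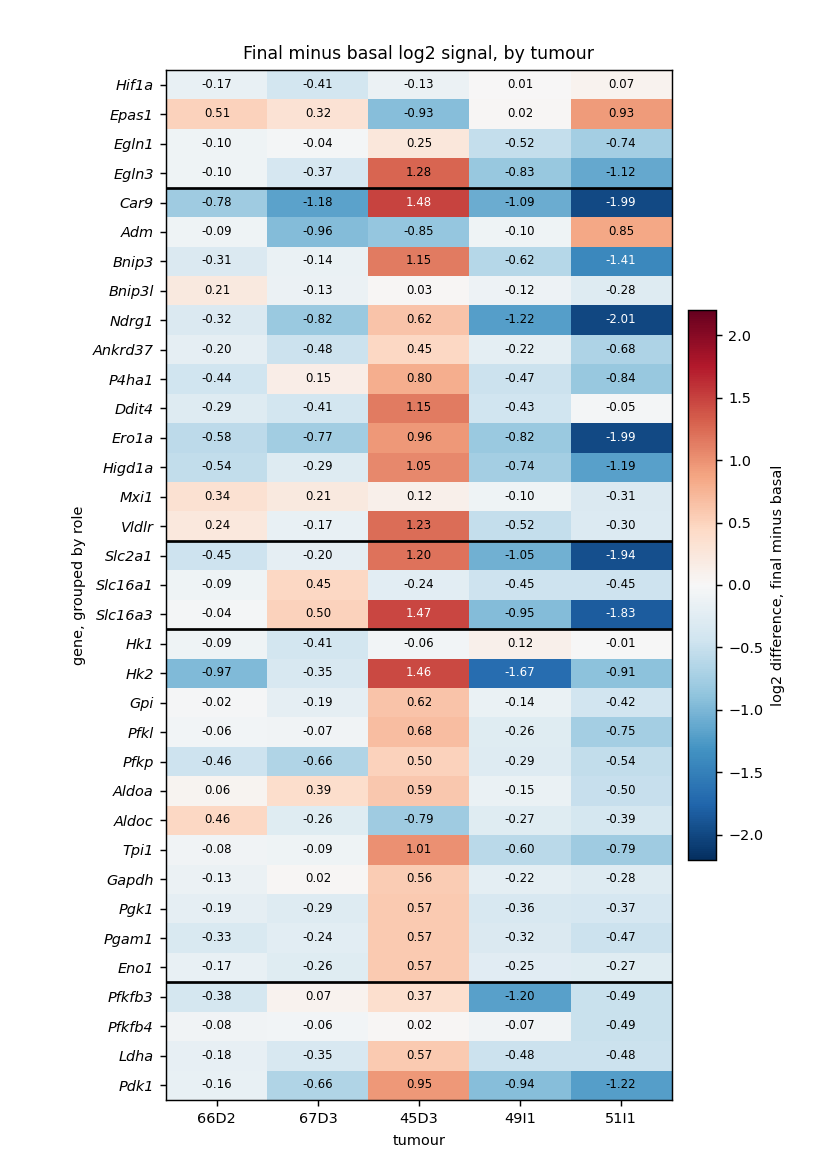
Log2 difference, final minus basal, of each gene (rows, grouped by role from oxygen sensing at the top to regulators of glycolytic flux at the bottom) in each of the 5 tumours (columns), with the value printed in each cell. The 45D3 column is mostly positive, up to 1.48 for Car9, and the 49I1 and 51I1 columns are mostly negative, down to -2.01 for Ndrg1.

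The basal biopsy of 45D3 stood low for these genes before any treatment. It had the lowest of the 5 basal signals in 27 of the 34 genes, against 24.6% of all genes. The mean signal over the 34 genes was 10.26, 9.66, 9.83, 9.36 and 9.49 in final samples, against 10.43, 9.91, 9.28, 9.87 and 10.18 in basal samples. So the 45D3 biopsy was the lowest basal sample on average, and its final sample was the second highest of the final ones. The SD between tumours was larger in basal than in final samples for 23 of the 34 genes (50.9% of all genes), with a median SD of 0.36 in final and 0.51 in basal samples, against 0.24 in final and 0.25 in basal samples over all genes.

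The 45D3 biopsy was also highest in a measure that rises as RNA quality falls. The array's hexokinase control has probe sets at the 3′ and 5′ ends of the Hk1 transcript, and a larger 3′ minus 5′ difference goes with degraded or incompletely labelled RNA. That difference was 1.07, 1.0, 0.89, 1.10 and 1.02 in final samples, against 0.97, 2.03, 2.36, 1.19 and 1.29 in basal samples, so the 45D3 and 67D3 biopsies were highest. Its part in the differences of the hypoxia and glycolysis genes was not tested. The medians of all tested probe sets lay between 7.75 and 7.80 in final and between 7.67 and 7.79 in basal arrays.

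Of the 5 tumours left out in turn, 45D3 changed the counts most. Without it, 17 of the 34 genes were lower at an unadjusted p under 0.05 (limma, background 10.7% of all genes) and 1, Epas1, was higher (background 8.5%). Still 0 of 34 passed the adjusted threshold (background 0%), with Car9 lowest at an adjusted p of 0.129. The mean was then lower for 32 of the 34 (55.1% of all genes) with a median of -0.34. The 21 of 34 genes lower in all 4 remaining tumours (18.4% of all genes) are the same 21 for which 45D3 alone was higher. Since 45D3 moved against the other 4, a rise in these counts without it follows from that pattern and is no separate result. Leaving out 51I1 instead brought the median to -0.08. Leaving out any 1 of 3 other tumours left a single gene of 34 at an unadjusted p under 0.05, a share near that of all genes on the lower side. It was Adm without 51I1 (-0.50, background 2.37%), Aldoc without 66D2 (-0.43, background 2.38%) and Slc16a1 without 67D3 (-0.31, background 2.09%). Without 49I1 it was 0 of 34, against 4.06% of all genes.

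**Figure D2:**
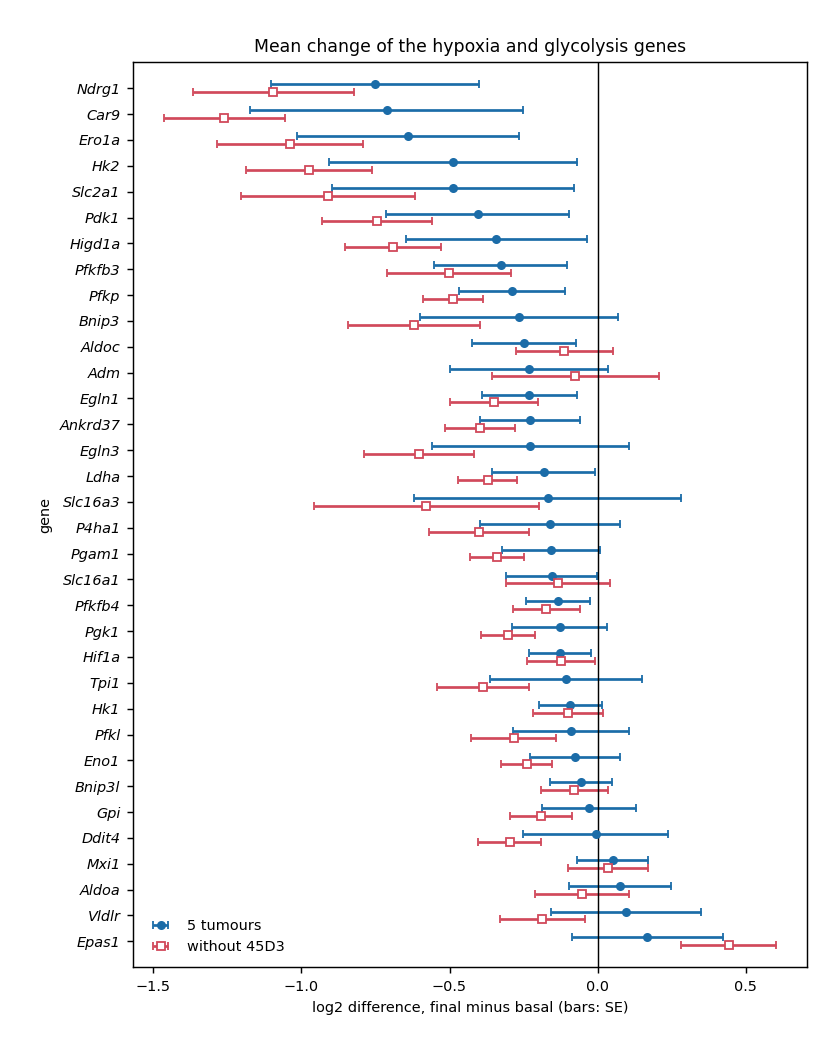
Mean log2 difference, final minus basal, with its SE from limma, for the 34 tested genes ordered by their mean over 5 tumours (blue circles); red squares are the same fit without 45D3. Ndrg1 lies at -0.75 over 5 tumours and -1.10 without 45D3, and Epas1, at the bottom, at 0.17 and 0.44.

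Among the oxygen-sensing factors the 2 HIF alpha subunits had differences of opposite sign, neither past the test. Hif1a (probe set 1387076_at), whose product is controlled mainly at the level of protein stability, read 10.63, 10.33, 10.25, 10.71 and 10.75 in final samples, against 10.80, 10.74, 10.38, 10.70 and 10.67 in basal samples. These values overlapped over a narrow range, with a mean difference of -0.13 (SE 0.10, limma adjusted p = 0.774), and 3 of 5 tumours lower. Epas1, the subunit prominent in endothelium, differed by 0.17 (SE 0.26), higher in 4 tumours and lower by 0.93 in 45D3; without 45D3 it differed by 0.44 (SE 0.16), and by -0.02 without 51I1. The hydroxylases Egln1 and Egln3, Egln3 being a HIF target itself, both differed by -0.23 and were lower in 4 of 5 tumours. Without 51I1 the differences were -0.10 for Egln1 and near 0 for Egln3, and without 45D3 they were -0.35 for Egln1 and -0.60 for Egln3. Egln3 was 1.28 higher in the final sample of 45D3 and differed by -1.12 in 51I1.

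The 12 HIF-induced genes outside glycolysis had a median difference of -0.23, with 10 lower and 2 higher by mean, and the median was -0.40 without 45D3 and -0.06 without 51I1. By tumour, in the order used above, their medians were -0.30, -0.35, 0.88, -0.49 and -0.76. Ndrg1 (probe set 1371360_at), a stress-responsive gene induced by hypoxia and by differentiation, had the most negative mean difference of the set with all tumours and each gene's brightest probe set. With probe sets averaged per gene, Ero1a (-0.72) and Car9 (-0.71) lay below Ndrg1 (-0.65). It read 11.54, 9.75, 9.95, 8.73 and 9.32 in final samples, against 11.87, 10.57, 9.33, 9.95 and 11.33 in basal samples. The groups overlapped, with means of 9.86 ± 1.05 in final and 10.61 ± 1.02 in basal samples (SD, n = 5 each) and a difference of -0.75 (SE 0.35). Tumour 66D2 was highest at both moments, and 51I1 had the most negative difference (-2.01); the limma adjusted p was 0.647. Without 51I1 the difference was -0.44 and without 45D3 -1.10.

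Ero1a (probe set 1389297_at) encodes the oxidase that re-forms disulphide bonds in the endoplasmic reticulum. Its signal was 9.58, 8.86, 9.44, 8.34 and 8.15 in final samples, against 10.16, 9.63, 8.48, 9.16 and 10.14 in basal samples. All tumours but 45D3 were lower, and the mean difference of -0.64 (SE 0.37) became -1.04 without 45D3 and -0.30 without 51I1. Car9 (probe set 1393452_at), the cell-surface carbonic anhydrase that helps hypoxic cells to export acid, read 8.90, 7.11, 7.74, 6.51 and 6.76 in final samples, against 9.68, 8.29, 6.26, 7.60 and 8.75 in basal samples. With means of 7.40 ± 0.96 in final and 8.12 ± 1.28 in basal samples (SD, n = 5 each), it differed by -0.71 (SE 0.46) with all tumours, by -1.26 (SE 0.20) without 45D3 and by -0.39 without 51I1. Its final mean of 7.40 lay below the BioB spike-in, the study's marker of sensitivity, at 7.97, so part of this difference is in signal below that marker.

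Bnip3 (probe set 1387805_at), a mitophagy receptor of the outer mitochondrial membrane, had 10.63, 10.41, 10.56, 10.06 and 9.62 in final samples, against 10.93, 10.54, 9.41, 10.69 and 11.04 in basal samples. The 45D3 biopsy was the lowest of its 10 samples and the 51I1 biopsy the highest; the difference of -0.27 (SE 0.33) was -0.62 without 45D3 and 0.02 without 51I1. Its relative Bnip3l differed by -0.06 (SE 0.10) and stayed between -0.28 and 0.21 in each tumour. Higd1a (probe set 1370062_at), a small protein of the inner mitochondrial membrane, had 10.99, 10.53, 10.98, 10.41 and 10.37 in final samples, against 11.53, 10.81, 9.93, 11.16 and 11.56 in basal samples. Basal values spread more widely than final ones here, and the difference was -0.34 (SE 0.31), or -0.69 without 45D3 and -0.13 without 51I1.

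Adm (probe set 1387219_at), which encodes the vasodilator peptide adrenomedullin, did not follow that order of tumours. It read 8.84, 7.66, 7.98, 7.47 and 9.03 in final samples, against 8.93, 8.62, 8.83, 7.57 and 8.18 in basal samples. The 51I1 tumour was the one with a higher final value (0.85), whereas 45D3 was lower by nearly as much (-0.85); the mean difference was -0.23 (SE 0.27), and lay between -0.50 without 51I1 and -0.05 without 67D3. Ankrd37 differed by -0.23 (SE 0.17) in signal below BioB, and P4ha1, the catalytic subunit of collagen prolyl hydroxylase, by -0.16 (SE 0.24). Ddit4, an inhibitor of mTORC1 signalling, differed by -0.01 with 1.15 in 45D3 and between -0.43 and -0.05 in the other 4. Mxi1, a MYC antagonist, and Vldlr, a lipoprotein receptor, differed by 0.05 (SE 0.12) and 0.10 (SE 0.25).

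**Figure D3:**
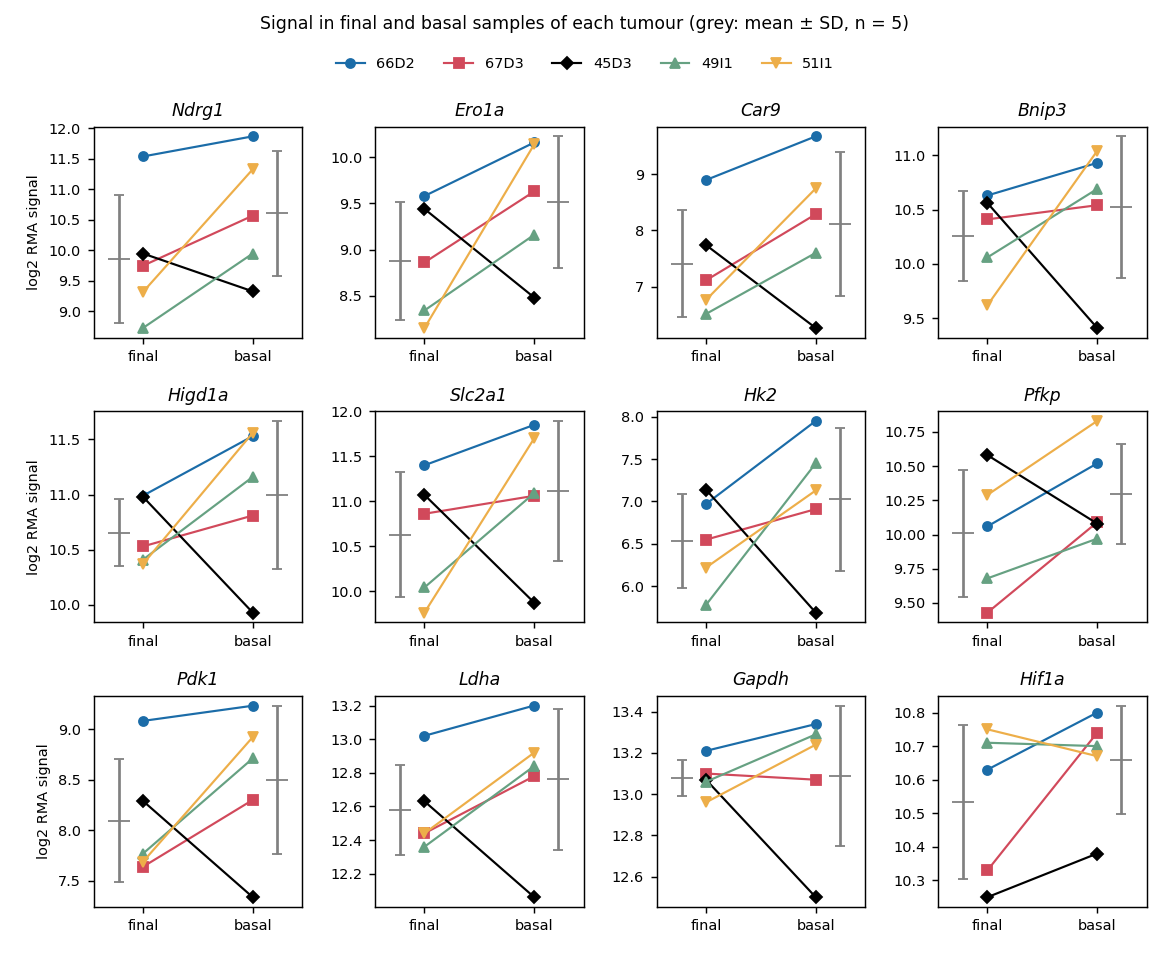
Log2 RMA signal of 12 of the genes in the final (left) and basal (right) sample of each tumour; lines join the 2 samples of a tumour and grey bars are the mean ± SD of 5 samples. Each panel has its own scale. From Ndrg1 to Ldha, 4 lines are higher at the basal end and the black line of 45D3 is higher at the final end, while in the Hif1a panel 45D3 is lowest at both ends.

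Of the 3 transporters, Slc2a1 encodes GLUT1, the main glucose carrier of many tumour cells, and Slc16a1 and Slc16a3 encode the lactate carriers MCT1 and MCT4. Slc2a1 (probe set 1370848_at) read 11.40, 10.86, 11.07, 10.04 and 9.76 in final samples, against 11.85, 11.06, 9.87, 11.09 and 11.70 in basal samples, with means of 10.63 ± 0.70 in final and 11.12 ± 0.78 in basal samples (SD, n = 5 each). In basal samples 45D3 was the one value below 11, while in final samples 49I1 and 51I1 were lowest; the difference was -0.49 (SE 0.41, limma adjusted p = 0.775) and -0.91 (SE 0.29) without 45D3, but -0.12 without 51I1. Slc16a3, the lactate exporter induced by hypoxia, differed by -0.17 (SE 0.45), with 1.47 in 45D3 and -1.83 in 51I1, and its sign turned without 51I1 (0.25) or 49I1 (0.03). Slc16a1 differed by -0.16 (SE 0.15) and was lower in 4 tumours, 45D3 among them (-0.24), with 67D3 the exception (0.45).

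The glycolytic enzymes had smaller differences, with a median of -0.11 over 11 tested genes, 10 of them lower by mean, and the median was -0.28 without 45D3 and -0.07 without 51I1. Tumour by tumour their medians were -0.09, -0.26, 0.57, -0.27 and -0.47, so that 45D3 again stood alone above 0. Hk2 (probe set 1369006_at), the inducible hexokinase of tumour and muscle cells, had the largest difference among them. It read 6.97, 6.55, 7.14, 5.78 and 6.22 in final samples, against 7.95, 6.91, 5.69, 7.45 and 7.13 in basal samples, all of them below BioB, and differed by -0.49 (SE 0.42) with all tumours, by -0.98 without 45D3 and by -0.19 without 49I1. Hk1, the constitutive hexokinase, differed by -0.09 (SE 0.11) at its tested probe set, and by -0.09 at another under the dim cutoff. Its control probe sets, left out of the fit, had the opposite sign, with 0.03 at the 3′ end, 0.14 in the middle and 0.58 at the 5′ end.

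Pfkp (probe set 1372182_at), the platelet-type phosphofructokinase, read 10.06, 9.43, 10.58, 9.68 and 10.29 in final samples, against 10.52, 10.09, 10.08, 9.97 and 10.83 in basal samples. It was lower in every tumour but 45D3, with a difference of -0.29 (SE 0.18), or -0.49 (SE 0.10) without 45D3 and -0.20 without 67D3. Pfkl, the liver-type form, differed by -0.09 (SE 0.20). Aldoc (probe set 1386998_at), the brain-type aldolase, had 11.19, 9.04, 8.75, 8.81 and 8.81 in final samples, against 10.73, 9.30, 9.53, 9.08 and 9.20 in basal samples. Tumour 66D2 was far above the other 4 at both moments and was the one tumour with a higher final value (0.46); the mean difference was -0.25 (SE 0.18). Here 45D3 had the lowest of the 5 differences (-0.79), and the mean was -0.11 without it. Aldoa, the aldolase also abundant in muscle, differed by 0.08 (SE 0.17), and by -0.05 without 45D3.

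Several enzymes of the later steps of the pathway were higher in the final sample of 45D3 and lower in those of the other 4 tumours. Pgk1, Pgam1 and Eno1 (phosphoglycerate kinase, phosphoglycerate mutase and enolase) each differed by 0.57 in 45D3 at their brightest probe sets. In the other 4 tumours the Pgk1 difference lay between -0.37 and -0.19, that of Pgam1 between -0.47 and -0.24, and that of Eno1 between -0.27 and -0.17. Their mean differences were -0.13 (SE 0.16), -0.16 (SE 0.17) and -0.08 (SE 0.15), or -0.30, -0.34 and -0.24 without 45D3 and -0.07, -0.08 and -0.03 without 51I1. The other tested probe set of Pgk1 differed by 1.11 in 45D3 and by -0.77 to -0.39 in the other tumours, a larger size in each tumour than at the brightest one, with a mean of -0.20 (SE 0.27). Tpi1, triosephosphate isomerase, differed by 1.01 in 45D3 and by -0.11 (SE 0.26) in the mean, and Gpi, phosphoglucose isomerase, by -0.03 (SE 0.16).

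Gapdh, the housekeeping control of the study and itself a glycolytic enzyme, was read by 3 control probe sets that stayed out of the fit. The 3′ probe set gave 13.21, 13.10, 13.07, 13.06 and 12.96 in final samples, against 13.34, 13.07, 12.50, 13.29 and 13.24 in basal samples, or 13.08 ± 0.09 in final and 13.09 ± 0.34 in basal samples (SD, n = 5 each). The mean difference was -0.01, and the 45D3 biopsy was the lowest of the 10 samples. At the 5′ probe set the 45D3 tumour had 13.04 in its final sample, against 12.03 in its biopsy, a larger gap (1.01) than at the 3′ probe set (0.56).

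The regulators that set glycolytic flux and the fate of pyruvate had a median difference of -0.26 over 4 genes, all lower by mean, and of -0.44 without 45D3 and -0.13 without 49I1. Pdk1 (probe set 1368079_at), the kinase that switches off pyruvate dehydrogenase, read 9.08, 7.64, 8.29, 7.77 and 7.69 in final samples, against 9.23, 8.30, 7.34, 8.71 and 8.92 in basal samples. Its difference was -0.41 (SE 0.31) and -0.74 (SE 0.18) without 45D3, and -0.20 without 51I1, with 66D2 highest at both moments. Ldha (probe set 1367586_at), the lactate dehydrogenase subunit that favours lactate production, had 13.02, 12.44, 12.63, 12.36 and 12.44 in final samples, against 13.20, 12.78, 12.06, 12.84 and 12.92 in basal samples, with means of 12.58 ± 0.27 in final and 12.76 ± 0.42 in basal samples (SD, n = 5 each). Tumour 66D2 was highest at both moments, and the difference was -0.18 (SE 0.17, limma adjusted p = 0.800), or -0.37 without 45D3 and -0.11 without 51I1.

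Pfkfb3 (probe set 1390391_at), which makes the allosteric activator of phosphofructokinase, read 8.16, 7.94, 7.75, 6.75 and 7.69 in final samples, against 8.54, 7.88, 7.38, 7.96 and 8.18 in basal samples. Tumour 49I1 had the most negative difference (-1.20); the mean difference was -0.33 (SE 0.22) and, without that tumour, -0.11; without 45D3 it was -0.50. Pfkfb4, a related enzyme, differed by -0.13 (SE 0.11) in signal below BioB. Of the 11 genes with more than 1 tested probe set, only Mxi1 had probe sets of opposite sign, both within 0.05 of 0.

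A wider list of 81 other genes of the hypoxia response and of glucose metabolism gave 61 tested genes. By mean, 37 were lower and 24 higher, with a median of -0.08, and 0 passed the adjusted threshold. At an unadjusted p under 0.05 there were 2 lower (Stc1 and Kdm3a, against a background of 4.36%) and 1 higher (Cited2, against 2.78%). Cited2, an inhibitor of HIF that competes for its coactivators, read 10.08, 9.78, 9.99, 9.68 and 9.37 in final samples, against 9.65, 8.93, 10, 9.35 and 8.91 in basal samples, a difference of 0.41 (SE 0.13, limma adjusted p = 0.579), with 45D3 level and 4 tumours higher. Stc1, the secreted glycoprotein stanniocalcin, had 8.57, 8.21, 7.89, 8.05 and 6.94 in final samples, against 8.50, 8.42, 9.04, 8.63 and 7.77 in basal samples, and differed by -0.54 (SE 0.19, adjusted p = 0.592); here 45D3 had the lowest value of the 5 differences (-1.15).

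Kdm3a, a histone demethylase induced by hypoxia, read 8.86, 8.87, 8.93, 8.63 and 8.36 in final samples, against 9.12, 9.28, 8.85, 9.11 and 8.94 in basal samples. It differed by -0.33 (SE 0.12, limma adjusted p = 0.593) and was lower in all tumours but 45D3. Pygb, the brain-type glycogen phosphorylase, was the single gene of the 61 that moved one way in all 5 tumours (3.52% of all genes were higher in all 5). It had 9.82, 9.84, 10.01, 9.93 and 9.83 in final samples, against 9.63, 9.64, 9.77, 9.84 and 9.72 in basal samples, a small difference of 0.17 (SE 0.08, adjusted p = 0.657). Split by pathway, the median was -0.13 over 31 hypoxia genes and 0.04 over 30 genes of glucose metabolism.

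Markers of other cells in the tumours differed by mean as well, some of them in the opposite sense in 45D3. No tested marker passed the adjusted threshold (limma), and over all genes 47.9% were higher by mean. All 8 fibroblast markers were higher by mean in final samples, and their mean log2 signal ran from 9.82 to 12.40 in final samples, against 9.86 to 11.25 in basal samples. By tumour it differed by 1.73, 1.58, -1.41, 0.88 and 1.47. Endothelial markers (7 of 7 measured higher) differed by 1.38, 0.87, -0.84, -0.15 and 1.53 in that order, over 7.06 to 8.59 in final and 6.55 to 7.89 in basal samples. Adipocyte markers (7 of 8 measured higher, Lep under the dim cutoff on every array) differed by 0.94, 1.83, -1.44, 0.26 and 3.60, over 5.23 to 8.63 in final and 4.81 to 6.67 in basal samples.

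Skeletal muscle markers (12 of 12 measured higher) differed by 3.76, 6.14, 0.34, 2.32 and 0.20, over 4.96 to 11.26 in final samples, against 4.75 to 5.31 in basal samples. Luminal mammary epithelial markers (8 of 13 measured higher, 5 lower) were taken as a check of the labelled tumour tissue. Their mean log2 signal was high in all arrays, from 10.32 to 10.88 in final and from 10.58 to 10.66 in basal samples. It differed by -0.05, 0.26, -0.01, -0.10 and -0.31. Single members were not all bright, and Elf5 read 6 in the final sample of 45D3. The erythroid markers (3 of 3 measured higher) ran from 7.30 to 9.72 in final and from 7.29 to 8.86 in basal samples. The part of these cells in the differences of the hypoxia and glycolysis genes was not tested.

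**Figure D4:**
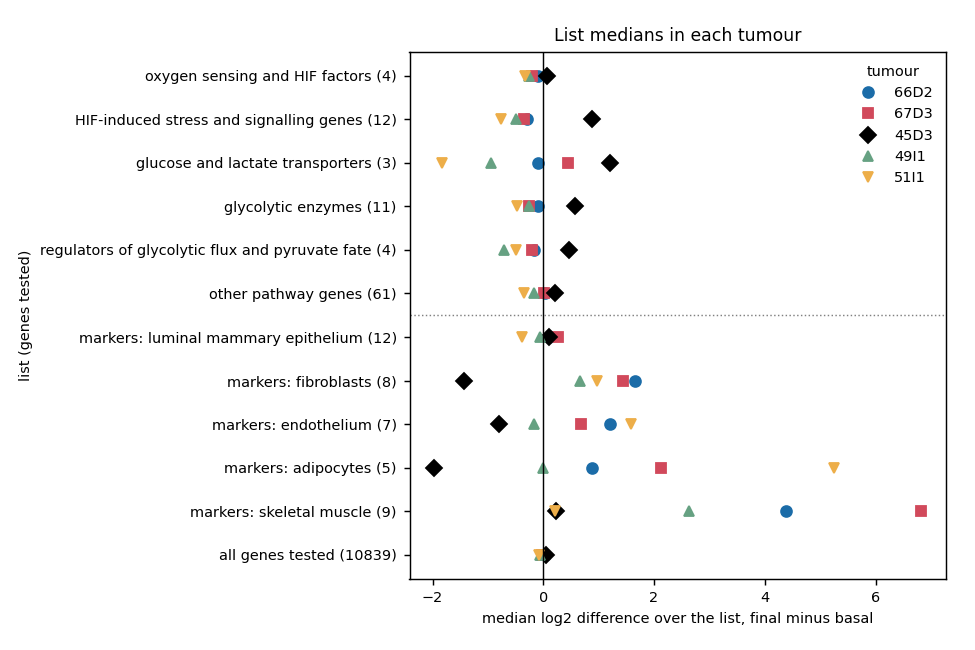
Median log2 difference, final minus basal, over each list of genes in each tumour; the number of tested genes is in brackets, and the dotted line separates pathway genes from cell type markers and from all genes. The black diamond of 45D3 is the rightmost point in all 5 role groups and the leftmost for fibroblast, endothelial and adipocyte markers.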

How the data were processed

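Biotin-labelled RNA of 10 samples was hybridised to Affymetrix rat genome arrays. The authors deposited 1 table of log2 signals; RMA as the normalization is given by the submitters' processing notes, no version is stated there, and the log2 scale was read from the values. Of 31042 probe sets that are not controls, 20826 have 1 gene symbol in the platform annotation, 436 several and 9780 none. The dimmest 40% by mean over all arrays (below 5.14) were left out, which kept 18625 probe sets. No depth exists for arrays; their number limits the precision.

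For each probe set limma 3.58.1 (R 4.3.3, lmFit and eBayes) estimated the difference with the tumour as a block, since basal and final samples share tumour identifiers in the labels, and p-values were adjusted by Benjamini-Hochberg over all probe sets. The deviations of a tumour's 2 arrays from their group means correlated at 0.72, 0.47, -0.16, 0.29 and 0.17 in the order of tumours used above. Counts use each gene's brightest probe set. In a check of the fit, simulated data of 18625 probe sets held 100 changed by 1 log2 unit and 100 by 2. Each change was the same in every tumour, and the noise was independent. The fit called 78% of those of 1 unit and 94% of those of 2, with 12 false calls. The real tumours did not move together, so these rates do not give the power of the tests above. The genes and lists were chosen with earlier results of these data known. Sample values are given for genes at an unadjusted p under 0.05, genes that moved one way in all 5 tumours, the 12 largest mean differences, and Hif1a, Slc2a1, Ldha and Gapdh. Other filters, blocks, normalizations, array weights, probe set averages, the methods' t-test and leaving out each tumour were tried. Motifs were searched in RefSeq promoters of build GRCr8 on both strands.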

Additional observations from a re-analysis of the deposited data

Results flagged for a closer look

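In 105 sets of 5 values (final signal, basal signal and difference of each of 35 genes), 9 held a sample far from the other 4 by Dixon's criterion. For independent sets chance gives about 1 in 20. These sets share values and tumours, so the count is not read against that rate. Of the 9, 6 concerned 45D3. The Pgk1, Pgam1 and Eno1 differences of 45D3, each 0.57, stood above those of the other tumours, as did its Ddit4 difference of 1.15. Its biopsy was set apart downward for P4ha1 (9.02) and Pgam1 (12.16). Aldoc stood out upward in 66D2, with 11.19 in the final sample and 10.73 in the biopsy. The Pfkfb4 difference of 51I1, -0.49, lay below those of the other tumours.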

How the results depend on the processing

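The call of 0 past the adjusted threshold held under every alternative run, the methods' t-test among them. It covered the hypoxia and glycolysis genes and the other pathway genes that each alternative tested, 34 and 61 in the main fit. Hk2 and Pfkfb4 were not tested with the dimmest 60% left out. The call also held for all probe sets wherever these were counted, and the lowest adjusted p of any of the 34 was 0.129. Without the replicate block, the paired design thus dropped, 0 of the 34 genes had an unadjusted p under 0.05 and 1001 probe sets did, against 1494 with the tumour as a block. The count of probe sets at an unadjusted p under 0.05 was 3254 with array weights and 2276 with no filter on dim signal, and from 795 (without 67D3) to 3383 (without 45D3) with 1 tumour left out; without 66D2 it was 833. Among the 34 genes it was 9 with array weights, which gave 45D3 the lowest weight (0.358), beside 3254 of all 18625 probe sets. With 1 tumour left out it ran from 0 to 18. The 18 were without 45D3, where 10.7% of all genes were lower and 8.5% higher at that p. Among the 61 other pathway genes it was 16 with array weights and from 0 to 19 with 1 tumour left out, the 19 without 45D3, beside the same shares of all. It was 5 of the 61 with tumour fitted as a random effect (1620 of 18625 probe sets). No filter also gave 5, but over the 72 other pathway genes with a probe set (2276 of 31042 probe sets). Leaving out the dimmest 60% gave 5 as well, over those of the 61 that passed this stricter filter (1028 probe sets in all). It was also 5 with probe sets averaged per gene, where no count over all genes was made. The median over the 34 genes stayed below 0 throughout, from -0.34 without 45D3 to -0.08 without 51I1, and was -0.26 with array weights. Of the 34 genes, 23 kept their sign in every alternative that tested them, and 1, Vldlr, turned in an alternative that kept all tumours (-0.031 with array weights). With 1 tumour left out, the differences ran from -0.022 to 0.44 for Epas1, -0.62 to 0.022 for Bnip3, -0.40 to 0.0096 for P4ha1, -0.30 to 0.10 for Ddit4, -0.022 to 0.14 for Mxi1, -0.19 to 0.25 for Vldlr, -0.58 to 0.25 for Slc16a3, -0.19 to 0.068 for Gpi, -0.28 to 0.073 for Pfkl, -0.053 to 0.22 for Aldoa and -0.39 to 0.062 for Tpi1. The causes were not tested. Signal below the BioB marker of sensitivity limits what can be said of Hk2, Ankrd37, Slc16a1 and Pfkfb4, whose 2 group means both lay below it. BioB (7.97 on average) is not a measure of background. The array medians of all tested probe sets, from 7.67 to 7.80, also lay below that average.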

Other observations

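Glycolytic and glycogen genes of muscle type were looked at after their values were seen. Eno3, the muscle enolase, read 7.72, 11.05, 6.01, 6.95 and 6.57 in final samples, against 5.86, 6.46, 6.35, 5.97 and 6.36 in basal samples, a difference of 1.46 (SE 0.68, limma adjusted p = 0.642), or 0.68 without 67D3. Pygm, the muscle glycogen phosphorylase, had 6.61, 10.51, 4.62, 5.59 and 4.29 in final samples, against 4.55, 4.64, 4.70, 4.50 and 4.76 in basal samples, all basal values under the dim cutoff, and so no size is given for its difference. Pfkm, the muscle phosphofructokinase, differed by 0.54 (SE 0.26, adjusted p = 0.655) and by 0.25 without 67D3. The final sample of 67D3 was highest for all 3 and had the highest mean of skeletal muscle markers, 11.26.

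Of the remaining cell markers, no tested one passed the adjusted threshold (limma). T and NK cell markers were higher by mean in final samples for 9 of 9 measured, against 47.9% of all genes. Their mean log2 signal differed by 1.72, -0.92, -0.96, 1.13 and 1.07 in the same order of tumours, over 5.63 to 7.74 in final and 5.20 to 6.94 in basal samples. Mast cell markers were higher for 1 of 5 and differed by -0.53, -2.37, -0.38, -0.61 and 0.49, over 5.66 to 9.59 in final and 6.19 to 9.97 in basal samples. Macrophage markers were higher for 4 of 8 and differed by 1.08, -0.96, -0.79, -0.46 and 1.18, over 8.34 to 10.32 in final and 8.07 to 9.30 in basal samples. Myoepithelial and smooth muscle markers were higher for 3 of 8 and ran from 10.04 to 10.99 in final and from 9.75 to 11.12 in basal samples. Neutrophil markers (3 of 4 higher) ran from 5.26 to 6.29 in final and from 4.76 to 5.88 in basal samples, B and plasma cell markers (1 of 4 higher) from 4.05 to 5.55 in final and from 4.32 to 5.13 in basal samples, and skin keratinocyte markers (2 of 4 higher) from 4.20 to 4.48 in final and from 4.28 to 4.61 in basal samples. The part of these cells in the differences of the hypoxia and glycolysis genes was not tested.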
